A study of Homo sapiens with 3 samples.

Results

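Closely spaced 8-oxodG peaks, here narrow and low peaks with another peak at most 1000 bases away, made up 1085 of the 23641 peaks in the list. 8-Oxodeoxyguanosine (8-oxodG) is guanine in DNA that carries an oxygen added by reactive oxygen species. It can pair with adenine as well as cytosine, and the glycosylase OGG1 starts its removal by base excision repair. Guanines that stand in runs are oxidised more readily than others. A peak in such data is a stretch where an antibody against 8-oxodG recovered more DNA fragments than the local background.

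MCF10A, an established and non-tumorigenic line of human breast epithelium, was held in G0, the non-dividing state of a cell that has left its cycle, with no treatment. The antibody (AB5830) was used to pull 8-oxodG-bearing fragments out of sonicated genomic DNA, and these were sequenced. There were 3 samples from 2 experiments in 1 group, and no second condition. The authors' peak list combines the 3 samples, so no value here has a replicate error, and the depth per sample is unknown.

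The members were chosen by 3 measured values of the list: a width under 1000 bases, a pileup (the number of fragments over the summit) under 80, and a gap of at most 1000 bases to the nearest other row of any width or height. The gap is the start of the later peak minus the end of the earlier. Of 21369 peaks under the width and pileup limits, 1085 (5.08%, exact binomial 95% interval 4.79% to 5.38%) met the gap limit, and the other 20284 are called single peaks. Width, pileup and gap are therefore descriptions, as are fold enrichment and background, which come from the same peak call, and no test was applied to them. Location is also given without a test, because peaks lie closer wherever they are dense. Binomial intervals cover counting error only and are too narrow here, since the peaks of 1 group are not independent.

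Members just inside the limits of the rule were about as many as peaks just outside them. The widest gap of a member was 998 bases, and the next narrow, low peak had a gap of 1002. A nearest gap above 900 bases was found in 71 members, and 67 peaks just outside had one of up to 1100. The highest pileup of a member was 79, with 28 members from 70 to 79 and 20 narrow close peaks left out at 80 to 89. The greatest width was 996 bases, with 19 members of 900 bases or more and 21 low close peaks left out at 1000 bases or more but under 1100. In all, 263 rows had a neighbour within 1000 bases but were too wide, too tall or both. They were 11.6% of the 2272 wide or tall rows.

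The members lay mostly in pairs. Chains of rows with gaps of at most 1000 bases gave 592 groups that held a member, and 549 of them (92.7%, interval 90.3% to 94.7%) had 2 rows. Another 34 groups had 3 rows, 25 of them made of members only, and 9 had 4 to 9 rows. Groups of 4 or more held 30 members. In 417 pairs both peaks were members, and in 132 pairs (24.0%) the partner was wide or tall. Those partners had a median pileup of 82.5 and a median width of 1121 bases. The member beside them had a median pileup of 28 and was the lower of the pair in 124 of 132. The pileup limit fixed that order for the 69 partners at or above it, and beside the other 63 the member was the lower in 55. Those 63 partners were all at least 1000 bases wide. Width goes with pileup, so the width limit bears on that order too.

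Gaps within a kilobase were more numerous than at any larger distance up to 20 kb, and the shortest of them were the most frequent. Over all rows, 719 gaps were of at most 1 kb and 408 of 1 to 2 kb, while between 5 and 10 kb there were 284 per kb on average. The first kilobase thus held 2.53 times the number per kb found at 5 to 10 kb, and the second 1.44 times. Chromosome 19 gave 123 of the 719, which was 3 times its own number per kb at 5 to 10 kb. On the other chromosomes, with 596 gaps, the ratio was 2.45.

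**Figure D1:**
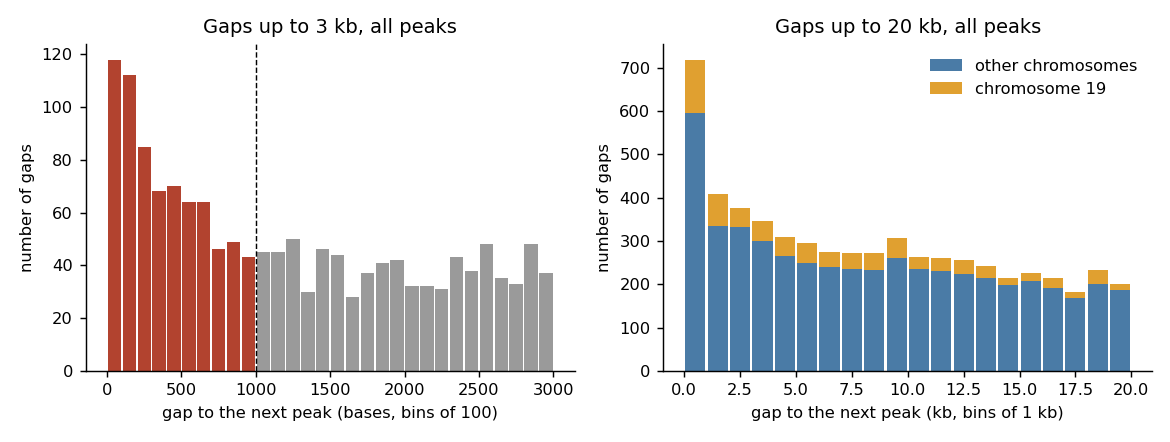
Number of gaps between neighbouring peaks of the whole list, in bins of 100 bases up to 3 kb (left, with gaps of at most 1000 bases in red and the dashed line at the limit) and in bins of 1 kb up to 20 kb (right, stacked by chromosome). Counts fall from 118 gaps of 1 to 100 bases to 43 in the last bin within the limit and then stay between 28 and 50 up to 3 kb.

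The 672 gaps in groups with a member had a median of 373 bases (interval 328 to 412) and quartiles of 151 and 642.5 bases. Gaps of up to 200 bases were 211 of them (31.4%), and gaps above 800 bases 87 (12.9%). The list held no gap under 53 bases. There were 16 gaps under 60 bases, 50 of 60 to 79 and 50 of 80 to 99. No source used here states the distance at which the peak caller joined peaks. Summits of the 417 pairs lay 875 bases apart at the median, with a range of 127 to 1790. Of 834 summits, 437 (52.4%) lay in the facing side of their peak and the rest in the far side or at the middle.

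The 3 closest pairs of 2 members were of low or unequal height. In 4q21.22, on the long arm of chromosome 4 (hg18, 82760078 to 82760322 and 82760375 to 82760608), peaks with pileups of 18 and 11 were 53 bases apart. In 22q13.31 (chromosome 22, 45916374 to 45916622 and 45916676 to 45917173) the gap was 54 bases and the pileups were 10 and 16. In 19q13.42 (chromosome 19, 59931780 to 59932474 and 59932529 to 59932781) a peak of 695 bases and pileup 60 stood 55 bases from one of 253 bases and pileup 15. Pairs with a wide or tall partner are not ranked here, and 1 of them, in 10q11.1 (chromosome 10, 41688634 to 41692321), also had a gap of 53 bases, with pileups of 73 and 175.

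Short gaps went with narrow peaks. Of 351 members with a nearest gap of at most 200 bases, 28.5% were at most 250 bases wide, against 2.09% of the 335 with a gap above 200 and up to 500 and 4.51% of the 399 with a longer gap. The same share was 3.32% in single peaks. The narrowest members were 200 bases wide. Among pairs of members with gaps of at most 200 bases, the narrower peak had a median width of 321.5 bases and a median pileup of 19.5, and the wider one 505 bases and 28. The narrower peak was the lower in 101 of these 128 pairs. It was the lower in 91 of 131 pairs with gaps above 200 and up to 500 bases and in 112 of 158 with longer gaps.

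The pairs in which both peaks were at most 250 bases wide are described here as a set. This set was picked after its values were seen. It held 31 pairs, 7.43% of the 417 pairs of members and 24.2% of those with gaps of at most 200 bases. Their gaps ran from 53 to 167 bases, and 30 of the 31 were of at most 113, although the rule allowed gaps up to 1000. Measured from the start of the first to the end of the second peak, the pairs spanned 490 to 595 bases, with a median of 511. Summits were 127 to 398 bases apart. The set was picked for widths of at most 250 bases, and no member was narrower than 200. The span is made up of both widths and the gap, so these limits and the short gaps entail a narrow range of spans. That range is therefore no separate finding, and the same limits bound the summit distances. Of 2134 pairs of neighbouring narrow, low peaks with gaps of 1 to 10 kb, only 3 had both widths at or under 250 bases.

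The peaks of these narrow pairs were alike in height. The higher pileup was 1.21 times the lower at the median, from 1.02 to 2.25, and at least 2 times in 3 of 31 pairs. In the other 97 pairs of members with gaps of at most 200 bases the median ratio was 1.47. The narrow pairs were picked for widths that are alike, and width goes with pileup, so the lower ratio is no separate finding. Pileups ran from 10 to 78 with a median of 17, and the median background was 0.68 fragments. The pairs lay on 17 chromosomes, 1 of them on chromosome 19 and 19 in Giemsa-negative bands. No band held more than the 3 in 14q32.32. The tallest pair was in 18q21.2 (chromosome 18, 48572909 to 48573118 and 48573222 to 48573449), with pileups of 56 and 78 over backgrounds of 4.69 and 4.88 fragments. A pair in 9q21.13 (chromosome 9, 77979721 to 77979934 and 77980035 to 77980245) had pileups of 45 and 40 and backgrounds of 4.40 and 4.09.

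**Figure D2:**
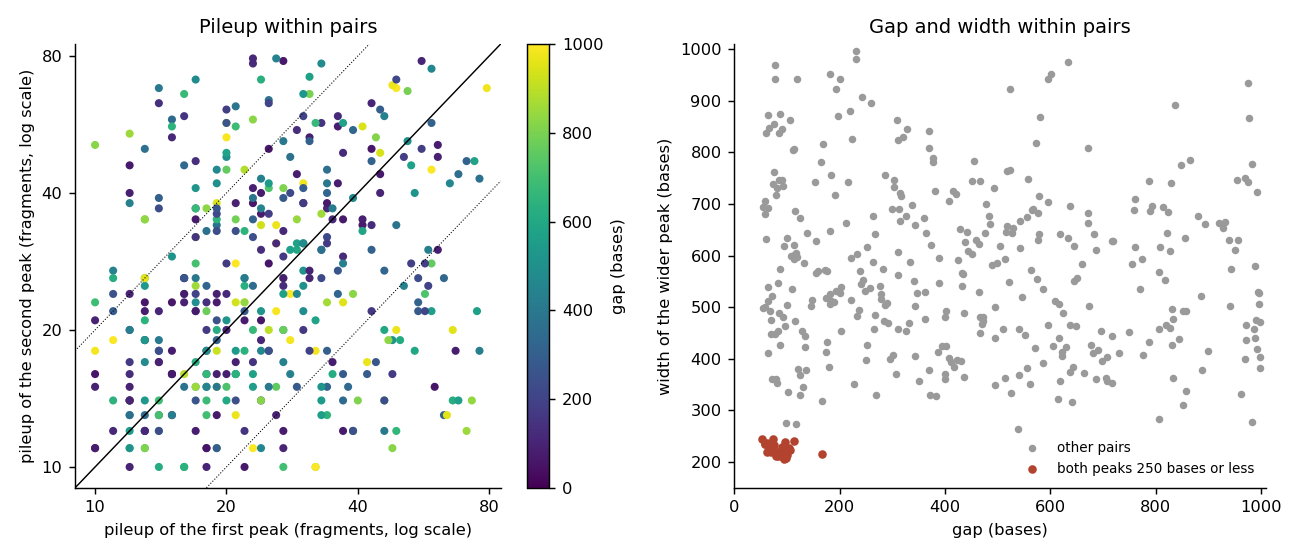
The 417 pairs of 2 closely spaced peaks. Left, pileup of the first against the second peak in chromosome order, on log axes, coloured by gap, with equality as a solid line and ratios of 2 as dotted lines. Right, gap against the width of the wider peak, with the 31 pairs in which both peaks are at most 250 bases wide in red at gaps of 53 to 167 bases.

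Peaks of a pair were a little closer in height than neighbouring single peaks, with intervals that overlapped at 1 to 2 kb. Over the 417 pairs the higher pileup was 1.5 times the lower at the median (interval 1.43 to 1.59), and at least 2 times in 122 pairs (29.3%). Neighbouring narrow, low peaks 1 to 2 kb apart had a median ratio of 1.63 (interval 1.52 to 1.75, 288 pairs) and those 10 to 50 kb apart 1.64 (5506 pairs). The median ratio was 1.40 for gaps of at most 200 bases (interval 1.26 to 1.5), 1.55 for those above 200 and up to 500, and 1.54 for longer gaps.

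Local background was alike within pairs too. The background at the summit, derived from pileup and fold enrichment, had a Spearman's rho of 0.542 between the peaks of the 417 pairs, against 0.225 at 1 to 2 kb and 0.181 at 5 to 10 kb. For pileup rho was 0.253 in pairs and 0.0444 at 1 to 2 kb. These values are across pairs of peaks within 1 list, which share libraries and local coverage. The stretch over which the peak caller took the background is not stated. Close peaks may share part of it by construction, which was not tested. Within pairs rho of the background was 0.783 for gaps of at most 200 bases and 0.369 for gaps above 500. The part of the shared background in the likeness of pileups was not tested.

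The 5 pairs of 2 members with the highest summed pileup reached their height over backgrounds of 1.05 to 4.88 fragments. In 7p22.2 (chromosome 7, 2946564 to 2947195 and 2948170 to 2948912) the pileups were 79 and 68, the fold enrichments over the local background, the authors' values with their decimal points restored, 33.1 and 31.4, and the gap 975 bases. In 8q13.2 (chromosome 8, 69385462 to 69385942 and 69386409 to 69386867) the pileups were 59 and 75 with folds of 24.8 and 36.2. The narrow pair in 18q21.2 came next, with lower folds of 10.02 and 13.4 over its raised background. In 7q11.23 (chromosome 7, 73104802 to 73105289 and 73105868 to 73106582) pileups of 74 and 47 had folds of 36.6 and 13.7. In 16p11.2 (chromosome 16, 28420028 to 28420770 and 28420987 to 28421625) pileups of 49 and 71 had folds of 11.6 and 18.1.

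The members of highest fold enrichment were each over a background below the median of all rows, 1.01 fragments. The rule keeps pileup under 80 and the background is derived from pileup and fold, so folds this high entail a low background. A peak in 19q13.42 (chromosome 19, 59377493 to 59378138) reached a fold of 46.8 with a pileup of 79 over 0.708 fragments. A peak in 5p15.31 (chromosome 5, 6624584 to 6625255) reached 43.7 with a pileup of 77 over 0.786. A peak in 11p15.5 (chromosome 11, 1106700 to 1107330) reached 43.3 with a pileup of 79 over 0.849. The highest pileup of 79 was found in 5 members, among them those in 19q13.42, 11p15.5 and 7p22.2 and one in 10p11.1 (chromosome 10, 39123413 to 39124253), whose fold was 10.5 over 6.61 fragments. Equal pileups thus stood for widely different folds.

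Of the 9 groups of 4 or more peaks, 5 lay in pericentromeric (acen) or variable (gvar) bands, which flank centromeres or hold heterochromatin of varying length. In 4p11 (chromosome 4, 48834584 to 48853537) 9 peaks included 6 members with pileups of 31 to 54 among taller or wider rows, the last of them a peak of 12687 bases and pileup 213. In 7p11.1 (chromosome 7, 57549752 to 57560949) 4 of 8 peaks were members, and the background ranged from 3.15 to 6.61 fragments. In 10p11.1 a group of 6 (chromosome 10, 39116488 to 39141631) and one of 9 (39153896 to 39194775) each held 1 member between peaks of 1050 to 15533 bases. These 4 groups had backgrounds of 1.82 to 26.6 fragments, all above the median of 1.01 over the list.

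The group in 9q12, a variable band, was lower in height and background than those 4. Its 4 peaks (chromosome 9, 69025236 to 69027449) were all members with pileups of 21, 12, 18 and 20, and the background was 0.460 to 0.629 fragments. The group with the most members had similarly low values. It lay in 2p11.2 (chromosome 2, 87440269 to 87447003), with 7 members of pileup 19, 14, 20, 12, 10, 13 and 11, then a peak of 1138 bases and pileup 28. The background at these 8 peaks was 0.460 to 0.598 fragments, and 0.460 is the lowest in the list.

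The remaining 3 groups of 4 or more, outside pericentromeric and variable bands, mixed members with wide rows. In 11p15.5 (chromosome 11, 2019357 to 2044219) 9 peaks covered 90.5% of 24863 bases, with 2 members of pileup 20 and 41 among peaks of up to 4030 bases. In Xq25 (chromosome X, 129460186 to 129471674) 3 of 7 peaks were members, with pileups of 43, 30 and 70. In Xp11.23 (chromosome X, 48528648 to 48532408) a peak of pileup 84 and fold 42.6 was followed by one of pileup 31 and by members of pileup 59 and 22.

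**Figure D3:**
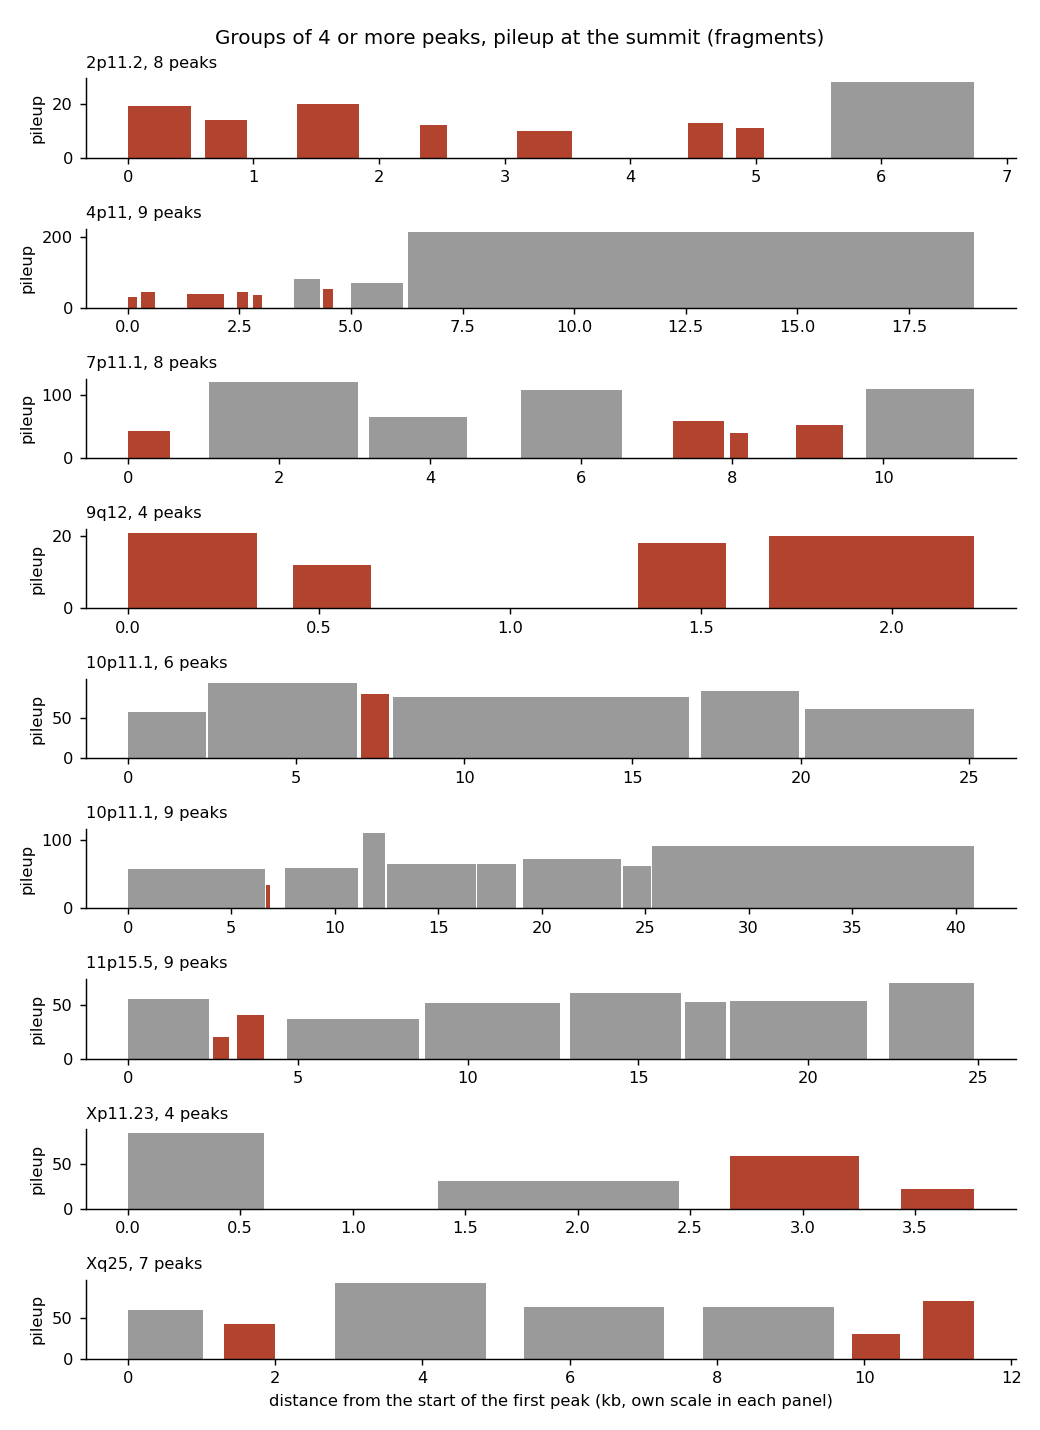
Peaks of the 9 groups with 4 or more rows, drawn to scale as bars from start to end with pileup as height. Closely spaced peaks under the width and pileup limits are red and wide or tall rows grey. The peaks in 2p11.2 and 9q12 stay at pileups of 10 to 28, and those in 4p11 reach 213.

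Of the 34 groups of 3, those of highest summed pileup mixed members with tall or wide rows. In 19q13.2 (chromosome 19, 47371305 to 47375537) a member of pileup 57 preceded peaks of 83 and 77. In 5p15.33 (chromosome 5, 3329008 to 3332258) members of pileup 66 and 24 preceded a peak of 106. In 17p12 (chromosome 17, 12868999 to 12870729) members of 22 and 21 stood at both sides of a peak of 103, with gaps of 85 and 56 bases. In 19p13.3 (chromosome 19, 3319713 to 3323094) a member of 18 followed peaks of 82 and 80, and in 10p11.1 (39142646 to 39152378) one of 47 followed peaks of 66 and 73. The 5 thus held 7 members, 4 of them with pileups of 18 to 24.

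By chromosome, the share of narrow, low peaks that were closely spaced was highest on chromosome 19, at 187 of 1177 (15.9%, interval 13.8% to 18.1%). Outside it the share was 898 of 20192 (4.45%, interval 4.17% to 4.74%). Chromosomes 22 and 17 followed at 6.91% (30 of 434) and 6.43% (44 of 684). The lowest were chromosome 13 with 9 of 550 (1.64%, interval 0.751% to 3.08%), chromosome 18 with 15 of 499 (3.01%) and chromosome 8 with 37 of 1140 (3.25%). Apart from chromosome 19, neighbours in this order had overlapping intervals, though that of chromosome 13 lay below those of chromosomes 7, 17 and 22, among others. Chromosome 19 held 17.2% of the members, against 4.88% of single peaks and 11.6% of single peaks with a gap of 1 to 10 kb. It had 3.35 members per sequenced Mb, and the other chromosomes together 0.323. Its density of all peaks was also the highest, at 25.6 per Mb against 6.15 to 14.07 on the others.

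The share of closely spaced peaks was greater on chromosomes with more peaks per Mb. Over the 23 chromosomes Spearman's rho was 0.562, and over the 22 without chromosome 19 it was 0.50. The density enters both measures, so this is a description only. Chromosome 20 and chromosome 16, with 14.07 and 14.02 peaks per Mb, had shares of 4.88% and 5.70%, while chromosome 22 with 14.06 had 6.91%.

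The members fell in 301 of 811 bands with a peak, and 13 bands with 10 or more held 227 of them. Bands differ in their number of peaks, so these counts alone do not tell the members from the list. The band 19q13.2 had 37 members of 148 narrow, low peaks (25%, interval 18.3% to 32.8%), and 19q13.33 had 33 of 136 (24.3%). They were followed by 19p13.3 with 26 of 153 (17.0%), 19q13.42 with 19 of 82 (23.2%) and 5p15.33 with 15 of 92 (16.3%). In 19q13.2 the members had pileups of 15 to 66 with a median of 31, and single peaks there a median of 29. In 19p13.3 the medians were 23.5 and 26, and in 5p15.33 34 and 27. Members were thus the higher in some of these bands and the lower in others.

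Giemsa staining separates gene-rich, early replicating light bands (gneg) from dark bands (gpos25 to gpos100). Light bands held 642 of 1085 members (59.2%, interval 56.2% to 62.1%), against 50% of single peaks and 57.4% of single peaks with a gap of 1 to 10 kb. The darkest classes, gpos75 and gpos100, held 109 members (10.05%), against 24.0% and 14.3%. Without chromosome 19 the members' shares were 60.6% in light and 12.1% in the darkest bands. Single peaks then had 50.2% and 25.2%, and those with a gap of 1 to 10 kb 58.4% and 16.1%. Read by class, 5.95% of narrow, low peaks were closely spaced in light bands, 7.19% in gpos25, 4.29% in gpos50, 1.99% in gpos75 and 2.39% in gpos100. The value for gpos25 was 4.57% without chromosome 19.

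Pericentromeric and variable bands had the highest share. In acen bands 25 of 157 narrow, low peaks were closely spaced (15.9%, interval 10.6% to 22.6%), and in gvar bands 22 of 148 (14.9%). Without chromosome 19 the gvar count was 11 of 47 (23.4%, interval 12.3% to 38.0%), and that of acen bands was unchanged. Together these bands held 4.33% of members and 1.27% of single peaks. Their 47 members had a median pileup of 31 and a median background of 1.42 fragments, against 23 and 0.944 for the 258 single peaks there. Within 2 Mb of a chromosome end lay 104 members (9.59%, interval 7.90% to 11.5%), against 4.63% of single peaks and 7.72% of those with a gap of 1 to 10 kb. Without chromosome 19 the shares of members and of single peaks there were 10.7% and 4.55%.

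**Figure D4:**
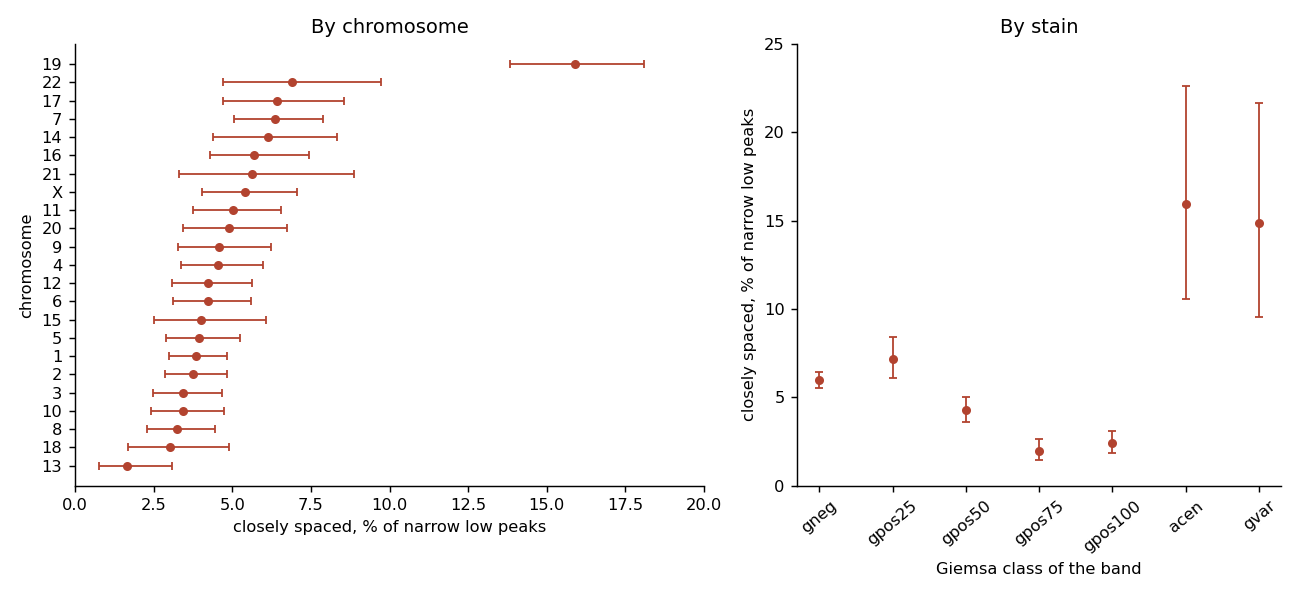
Closely spaced peaks as a percentage of all narrow, low peaks by chromosome (left) and by Giemsa class of the band (right). Points are shares and bars exact binomial 95% intervals. Chromosome 19 lies at 15.9% and the other chromosomes between 1.64% and 6.91%, and acen and gvar bands lie above the light and dark classes.

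In 14q32.32 most narrow, low peaks were closely spaced. This band was singled out after its values were seen. It had 11 members of 16 narrow, low peaks (68.8%, interval 41.3% to 89%). Of these, 7 lay between 102407777 and 102425948 on chromosome 14, and 6 of the 7 formed 3 narrow pairs. Their pileups were 19 and 16, 45 and 44, and 37 and 35, with gaps of 87, 63 and 67 bases and backgrounds of 0.460 to 0.786 fragments. The seventh (102411491 to 102412044) stood at a pileup of 67 over 0.588 fragments, a fold of 42.8. The other 4 lay at 102617974 and beyond, with backgrounds of 0.944 to 2.01 fragments and folds of 7.97 to 17.0.

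In height the members differed little from single peaks. Their pileup had a median of 24 fragments (interval 23 to 26), quartiles of 17 and 38 and a range of 10 to 79. Single peaks had a median of 23 and quartiles of 16 and 36, within the same limits. A pileup of 40 or more was found in 22.9% of members and 20.7% of single peaks, and one of 20 or less in 38.4% and 42.9%. Single peaks with a gap of 1 to 10 kb had a median of 25 (quartiles 17 and 40), and those with a gap above 10 kb one of 22. In median pileup, which the rule bounds, members thus stood nearer to the single peaks that also had neighbours than to isolated ones.

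The background at the summit was higher around members. It had a median of 1.10 fragments (interval 1.04 to 1.10), against 0.944 for single peaks, 1.10 for those with a gap of 1 to 10 kb and 0.944 for those with a gap above 10 kb. These values come in steps, so medians can coincide. Fold enrichment, which sets pileup against background, had a median of 10.9 (interval 10.4 to 11.3) in members and 11.2 in single peaks. Single peaks had 11.4 at gaps of 1 to 10 kb and 11.1 above 10 kb. In fold, members thus stood nearer to the isolated peaks. The ratio of medians of members to single peaks was thus 1.04 for pileup, 1.17 for background and 0.971 for fold enrichment.

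Comparison within chromosome arms gave no common direction for pileup. Of 36 arms with at least 10 members, the median pileup was higher in members on 19 and lower on 15, with ratios of 0.633 to 1.55. Background was higher on 17 and lower on 11, and the median of the arm ratios was 1. Fold enrichment was lower in members on 25 of 36 arms, with a median ratio of 0.930. On chromosome 19, members had a median pileup of 29 and single peaks 27, over backgrounds of 1.42 and 1.26 fragments. On the other chromosomes the median pileup was 23 in both, over 1.04 and 0.944.

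Width varied more among members than among single peaks. The median was 455 bases (interval 439 to 469) with quartiles of 341 and 603, against 433 with quartiles of 354 and 531 for all single peaks. Single peaks with a gap of 1 to 10 kb had a median of 454.5 bases, like that of members, with quartiles of 367 and 567. At the narrow end, 11.5% of members were at most 250 bases wide. Those 125 narrow members had a median pileup of 15, and 100 of them had a gap of at most 200 bases. Members on chromosome 19 were wider, with a median of 513 bases and 3.21% at or under 250 bases, against 440 bases and 13.3% elsewhere. Single peaks on chromosome 19 had a median of 480 bases and those elsewhere 431.

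**Figure D5:**
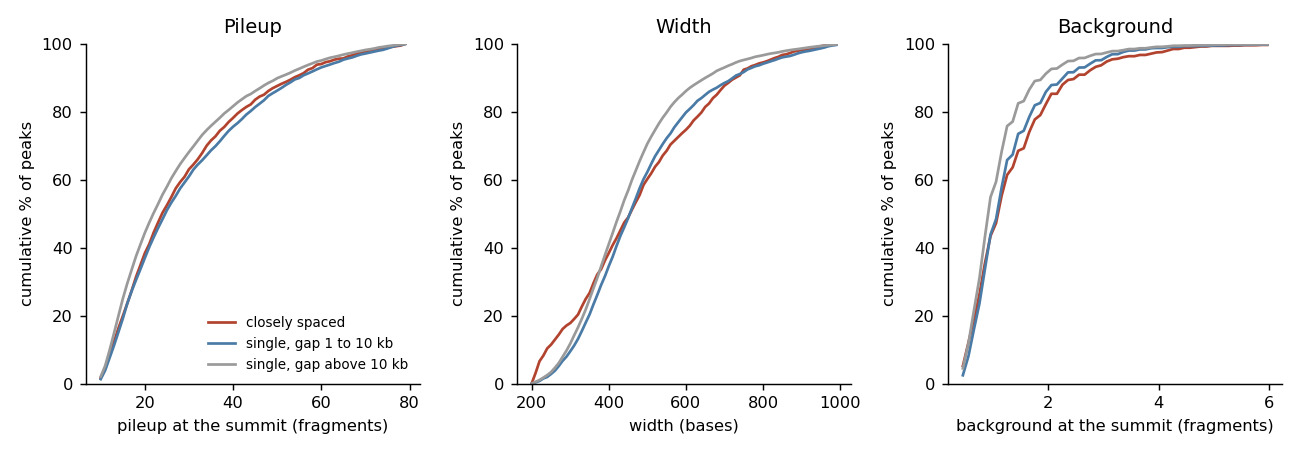
Cumulative percentage of closely spaced peaks, of single peaks with a gap of 1 to 10 kb and of single peaks with a gap above 10 kb, by pileup (fragments), width (bases) and background at the summit (fragments). The curves of the first 2 sets lie close together for pileup, and closely spaced peaks start higher at small widths, with 11.5% at or under 250 bases.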

How the data were processed

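The data were 8-oxodG DIP-seq peaks of 3 G0-arrested MCF10A samples in 1 deposited list. The submitters' processing notes name BWA, SAMtools, bedtools and hg18. No source used here gives the peak caller, its settings, its control or how samples were combined. Per the file headers, the deposited values are positions, widths, summits, the pileup signal, fold enrichment, and p and q as −log10. In the deposited fold and p columns the decimal points were lost. They were restored from the Poisson relation between pileup, background and p, with background equal to (pileup + 1) / fold − 1 (kept to 3 decimals), which met p within 0.01 for 23640 of 23641 rows. The exception was no member. The procedure and the search for groups were tested on data simulated under the same relation and gap rule, which checks the code only.

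Bands came from circlize 0.4.16 and sequenced contigs from IRanges 2.36.0 (R 4.3.3), both hg18, by peak midpoint. Computations used Python 3.11.15, pandas 2.3.3, numpy 2.4.6, scipy 1.17.1 and matplotlib 3.10.9. Intervals of medians are exact binomial. Replicates could not be compared. No genome or annotation of hg18 was used here, so no sequence is printed and no gene assigned. The members and rules for named regions were chosen with earlier results of these data known. Named were groups of 4 or more rows, the 5 groups of 3 of highest summed pileup, among pairs of 2 members the 5 of highest summed pileup and the 3 closest, the 3 members of highest pileup and of highest fold, the 5 bands with most members, and the chromosomes of the 3 highest and 3 lowest shares. The narrow pairs, 14q32.32, 9q21.13 and 10q11.1 were named after their values were seen.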

Additional observations from a re-analysis of the deposited data

How the results depend on the processing

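Each of the 11 main values was recomputed under 10 alternatives, and chromosome 19's share has no value with that chromosome left out. Of 109 values, 81 stayed within the interval of the main value (for the number of members, within 1.5 times). Members numbered 686 with a gap limit of 500 bases, 1710 with 2000, 629 with summits at most 1000 bases apart and 270 among peaks of at least the median fold enrichment. In the same order, their share of narrow, low peaks was 3.21%, 8.00%, 2.94% and 2.72%, and the median gap 199.5, 682, 703.5 and 439.5 bases (between summits in the third), by construction of the limits for the first 3. The share was 5.70% without width and pileup limits, 4.41% where the neighbour had to be narrow and low, 4.45% without chromosome 19 and 4.66% without 7 arms of raised background. Without width and pileup limits the ratios to single peaks were 1.16 for pileup, 1.13 for width and 1.29 for background, and the ratio within pairs was 1.61. With summits at most 1000 bases apart the width ratio turned to 0.970, a limit that favours narrow peaks by construction, the background ratio was 1.06, and pairs were 95.4% of groups. Among peaks of higher fold, light bands held 55.6% of members, chromosome 19 20.7%, and the ratio within pairs was 1.35; the cause was not tested. Without the 7 arms, where the median background was 1.37 to 1.57 fragments against 0.944 on the median arm, the background ratio was 1.04 and chromosome 19 kept 6.96% of members on its short arm. Leaving out groups of 4 or more peaks, an alternative chosen after seeing the data, and leaving out pericentromeric, stalk and variable bands kept every value within its interval. Leaving out a sample was not possible, because the list combines the samples. No paired analysis was possible because there is 1 group and 1 combined list.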

Other observations

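Some bands with at least 10 narrow, low peaks, singled out after their values were seen, had high shares of closely spaced peaks at very different backgrounds. In 4p11, 9 of 13 narrow, low peaks were members, in 2 groups, with a median background of 2.39 fragments. In 7p11.1 4 of 11 were members, in 1 group, with 3.70. In 9p11.2, 5 of 12 were members, in 9q12 7 of 17 and in 15q11.2 8 of 22, each with a median background of 0.472 fragments, close to the lowest value in the list. Single peaks of these bands had medians of 1.82 in 4p11, 1.10 in 7p11.1, 0.629 in 9p11.2, 0.535 in 9q12 and 0.661 in 15q11.2. Members in 21q11.2 and 2p11.1, also of high share, lay in between at 0.849 and 0.881. Background at or near the lowest value in the list (under 0.47) was found in 59 members (5.44%) on 19 chromosomes, against 4.21% of single peaks. In single peaks the share was 2.57% at gaps of 1 to 10 kb and 4.64% at gaps above 10 kb. Among members in groups of 3 or more such a background was found in 17 of 119 (14.3%). Of these, 7 lay in the groups in 2p11.2 and 9q12, and peaks of 1 group are not independent.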
